A study of Mus musculus with 4 samples.

Results

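The NRF2 and antioxidant defence genes are 36 genes chosen by symbol, of 54446 annotated mouse genes in the deposited count table, and each of the 36 symbols matched 1 row. They were read in 4 libraries of epithelial cells derived from the tongue of C57BL/6 mice and grown in RPMI-1640 with 10% serum. Of these, 2 are labelled as a systemic Otub2 knockout (libraries 3 and 4) and 2 are wild type (Control 1 and 2). Otub2 is a deubiquitinase of the OTU family. The labels give neither the knockout allele nor the animals' age or number. They are silent on whether replicates stem from distinct animals or dishes, and p-values then cover only the scatter among these libraries, which may be technical.

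NRF2, encoded by Nfe2l2, is a transcription factor that KEAP1 holds for degradation by a cullin ubiquitin ligase in unstressed cells. When electrophiles or peroxides modify KEAP1, NRF2 accumulates, pairs with small MAF proteins and binds antioxidant response elements near genes for glutathione, thioredoxin and NADPH production, conjugation of reactive compounds and iron storage. In stratified epithelia such as that of the tongue this programme protects cells that face food, air and microbes. Several members, among them catalase, Sod1 and Gpx4, are general defence enzymes with other main regulators.

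In the count table the columns numbered 3 and 4 carry the prefix OE, a usual short form of overexpression, where the titles have KO. Titles were followed, and libraries 3 and 4 are called KO-labelled. Otub2 had 19.0 and 24.0 CPM (its count relative to the library total) in the KO-labelled libraries, against 27.5 and 26.9 CPM in both controls (edgeR log2 fold change -0.34, SE 0.302, adjusted p = 0.485). A gene-level count does not check a deletion of part of the gene. Gene counts summed to 22719550 and 18911259 in the KO-labelled libraries and to 12185345 and 11548186 in the controls. Library 3 stood apart: 16 salivary gland markers held 30.1% of its gene counts and 10 heart muscle markers 1.38%. The same lists held 0.00351% and 0.00491% in library 4, and between 0.00135% and 0.00824% in the controls. In library 3 the gland sum was mostly Mucl2 (381470 of 477510 CPM), with Car6, Pip and Prol1 at 53520, 20911 and 20582 CPM. Lpo, Bhlha15 and Aqp5 had 582, 274 and 148 CPM there. Of the 16 gland markers, 4 had no count in library 3, and Smr2, Muc5b, Amy1 and Muc19 had at most 3.70 CPM. The labels do not give the sex of the animals. Xist, the RNA of the inactive X chromosome, had 310 and 159 CPM in the KO-labelled libraries, against 0.560 and 0.439 CPM in the controls. The Y-linked genes Ddx3y (39.0 and 29.3 CPM against 4.48 and 4.98 CPM) and Eif2s3y (15.5 and 33.5 CPM against 2.52 and 2.71 CPM) were higher in the same libraries. The groups thus differed in RNA of both sex chromosomes, which cannot be told apart from the genotype label, and its part in the members, among them the X-linked G6pdx, was not tested. The 10 stratified epithelium markers were all detected in every library, with summed levels of 39332 and 49303 CPM in the KO-labelled libraries and 72566 and 67451 CPM in the controls. All CPM values are scaled by TMM size factors, which adjust for total count and in part for composition, and the values depend on that choice.

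All 36 members were well counted, with a lowest count of 339, for Txnrd1 in Control 2 (exact Poisson 95% interval 303.9 to 377.1, counting error only), and all passed the filter on low counts. Their levels spanned values from 23.4 CPM (Mgst1 in library 4) to 2337 CPM (Gsta4 in Control 2), as the plot of levels by library shows. In the edgeR quasi-likelihood test with Benjamini-Hochberg adjustment over 21916 genes, 0 of the 36 were called higher and 0 lower at an adjusted p of 0.05, and the same held for all genes (0% higher and 0% lower). The smallest adjusted p of a member was 0.166, against 0.162 over all genes. At an unadjusted p under 0.05, 5 members were higher and 4 lower, against 9.42% and 15.2% of all genes tested. DESeq2 called 3 members higher (Sqstm1, Txnrd1 and Cat) and 0 lower, against 3.56% and 1.18% of all genes.

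**Figure D1:**
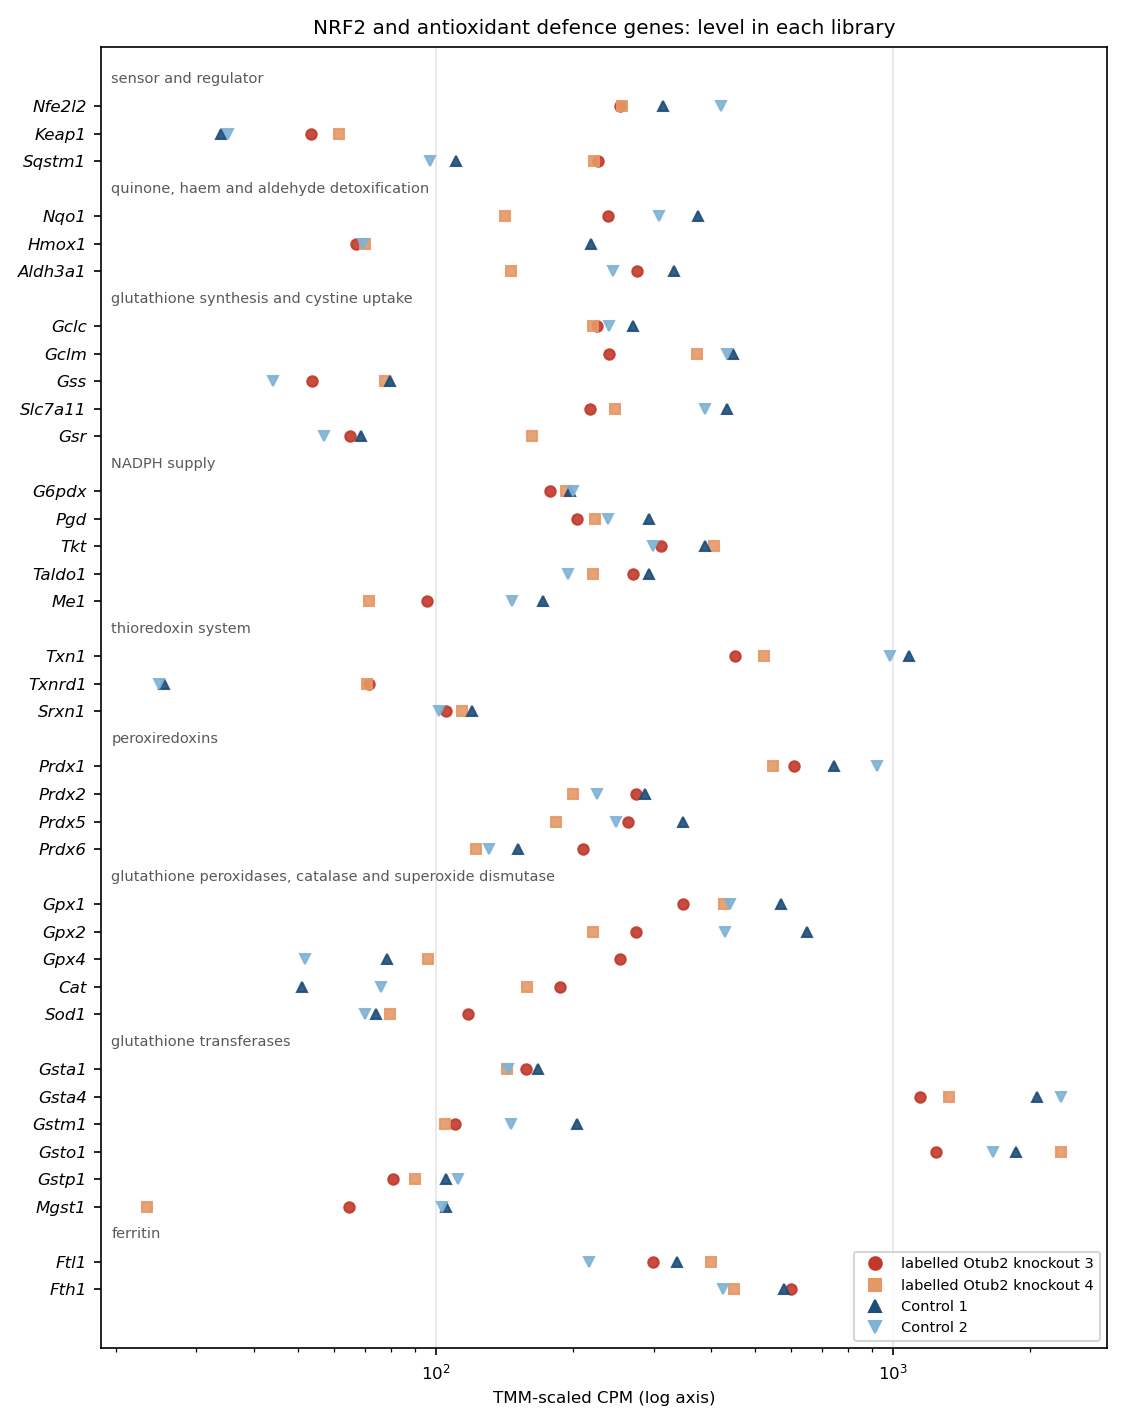
TMM-scaled CPM (x axis, log scale) of each of the 36 genes (y axis, grouped by role) in the 2 KO-labelled libraries (circles for 3, squares for 4) and the 2 controls (upward triangles for 1, downward for 2), 1 symbol per library and no error bar. Txnrd1 sits at 71.5 and 70.8 CPM in the KO-labelled libraries against 25.5 and 24.8 CPM in the controls, and Txn1 lies on the opposite side at 451 and 524 CPM against 1084 and 986 CPM.

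Without a call, the members can be described by where the libraries lay. In 16 of the 36 both KO-labelled libraries lay below both controls, in 6 both lay above, and in 14 the groups overlapped. Over all genes tested 33.1% lay below and 26.9% above. Among 11788 genes with a mean of at least 5 CPM, which include all 36 members, 12% lay below and 42.7% above, set beside 44.4% and 16.7% of the members. These shares depended on the scaling: with median-centred libraries 31.3% of the same genes lay below and 15.6% above, beside 63.9% and 11.1% of the members. With library size only, 21.1% lay below and 13.7% above, beside 63.9% and 11.1%. The members' median log2 fold change was -0.15, against 0.41 for those 11788 genes, and 29 of the 36 lay under 0.41. The shares also moved with abundance: among 490 genes with a mean of at least 239.5 CPM, the median mean of the members, 35.1% lay below and 23.9% above, and 10 of the 18 members in that range lay below with 0 above. The median log2 fold change of those 490 genes was -0.02, against -0.43 for the 18 members, of which 13 lay under -0.02. These counts are descriptions of the chosen list and carry no test.

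The direction of single members depended on how libraries were scaled. The median log2 fold change of all genes tested was 0.09 with TMM, 0.14 with DESeq2 size factors and -0.39 where every library was centred on its median over genes of at least 5 CPM. Over 5 scalings 26 of the 36 members kept their direction, and 22 kept their position as above, below or overlapping. No share of all genes was set beside these counts. Of the 22 members without overlap under TMM, Keap1, Gpx4, Sod1, G6pdx and Gpx1 lost that position under at least 1 other scaling. The distance of the members' median from that of genes of at least 5 CPM stayed between -0.60 and -0.56 under all 5, with 29 or 30 members under the latter. A scaling shifts all genes nearly alike, so this distance could hardly move between scalings. It was -0.46 without Control 1, -0.73 without Control 2, -0.57 without library 3 and -0.45 without library 4. By library, the members had a median log2 difference from the control mean of -0.16 (library 3) and -0.22 (library 4), whereas genes of at least 5 CPM had 0.29 and 0.36. The summed epithelial markers differed by -0.83 and -0.50. Of the 10 markers, 6 lay below both controls and 0 above. In library 4, Krt5 (8223 CPM against 5025 and 4840 CPM), Trp63 (526 against 312 and 347) and Cdh1 (508 against 473 and 416) exceeded both controls. The same genes lay below both controls in library 3. Whether the members' levels follow the share of epithelial RNA was not tested, and in bulk RNA fewer cells of a type and less RNA per cell cannot be told apart.

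**Figure D2:**
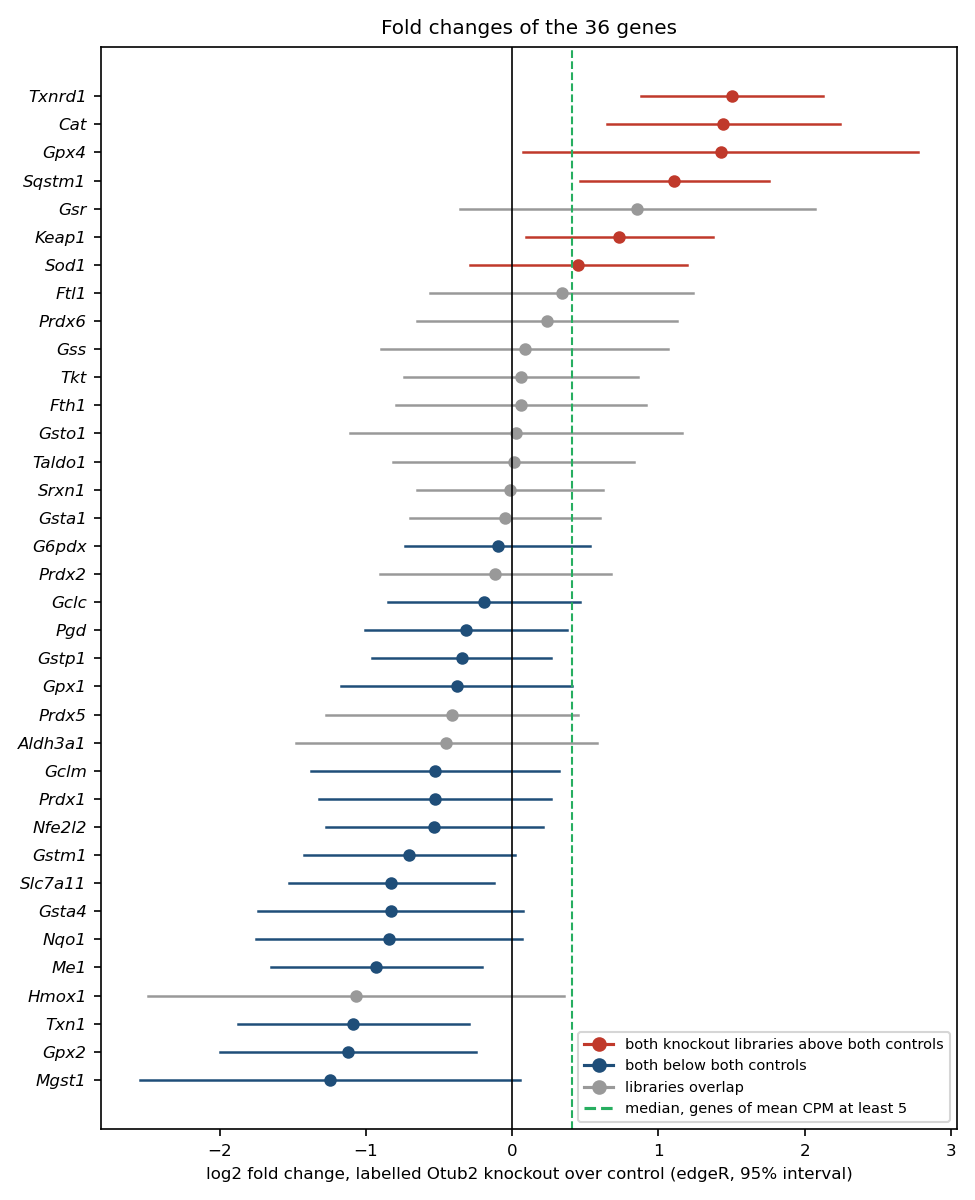
Log2 fold change of each of the 36 genes (y axis), KO-labelled libraries over controls, with its 95% interval from edgeR (2 libraries per group). The dashed line marks 0.41, the median of genes with a mean of at least 5 CPM, and 7 members lie to its right, led by Txnrd1 at 1.5 and Cat at 1.44. Among 490 genes with a mean of at least 239.5 CPM the median was -0.02.

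The motif that NRF2 binds was looked for in the promoters. RefSeq promoters (GRCm38.p6, 250 bases before to 50 after a transcription start) were held for 30 of the 36 members, with no entry used for Gclc, Gsta4, Hmox1, Aldh3a1, Gsr and Prdx6. The core of the antioxidant response element, TGACNNNGC on either strand, was found in 10 of the 30 (33.3%), against 14% of 27025 genes and 12.4% of 32851 promoters. It was found for 7 of 14 members with both KO-labelled libraries below both controls, 2 of 6 with both above, and 1 of 10 with overlap. The members were chosen as genes of this pathway, and whether the motif relates to their position was not tested. A match describes these letters in this window only and is not a site, and known distal elements lie outside it.

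The windows below show the 9 matching bases in capitals with up to 16 bases on each side, 5′ to 3′ along the gene's own strand. They are given for 6 members that lay below both controls and for Txnrd1 and Sod1, which lay above.
Nfe2l2: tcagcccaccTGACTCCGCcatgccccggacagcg
Gclm: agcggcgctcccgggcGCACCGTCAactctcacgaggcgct
G6pdx: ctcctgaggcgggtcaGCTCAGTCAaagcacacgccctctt
Me1: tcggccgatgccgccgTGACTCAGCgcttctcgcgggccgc
Prdx1: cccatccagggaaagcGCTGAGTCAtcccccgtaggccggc
Mgst1: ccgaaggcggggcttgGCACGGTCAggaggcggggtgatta
Txnrd1: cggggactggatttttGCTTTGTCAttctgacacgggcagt
Sod1: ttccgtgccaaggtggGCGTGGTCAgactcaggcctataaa
The positions are chr2:75704879-75704913, minus strand for Nfe2l2, chr3:122245407-122245447, plus strand for Gclm, chrX:74428913-74428953, minus strand for G6pdx, chr9:86695896-86695936, minus strand for Me1, chr4:116685450-116685490, plus strand for Prdx1, chr6:138140455-138140495, plus strand for Mgst1, chr10:82859098-82859138, plus strand for Txnrd1 and chr16:90220690-90220730, plus strand for Sod1. Those of Nfe2l2 and Me1 read TGACNNNGC on the gene's strand, and the other 6 on the opposite strand. In Me1 and Prdx1 the match reads TGACTCAGC, which also holds the AP-1 motif TGACTCA, a heptamer found in 5.2% of all promoters on either strand. The Txnrd1 window belongs to 1 of its 3 RefSeq promoters, and Pgd and Srxn1 held a match just after a start that is not shown. Pgd is counted among the 7 of 14, but its window (chr4:149166055-149166095) lies inside the gene, which begins at 149166771 on the minus strand in GENCODE. The windows shown for G6pdx, Me1, Mgst1 and Txnrd1 likewise lie inside their genes as drawn in GENCODE. Those of Nfe2l2, Gclm, Prdx1 and Sod1 lie before the gene's GENCODE start.

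Regulators of the pathway lay on opposite sides of the controls. Nfe2l2 (chromosome 2, 75675513 to 75704641, minus strand, GRCm38) had 253 and 256 CPM in the KO-labelled libraries and 314 and 421 CPM in the controls. Both KO-labelled libraries were low and close to each other, and the log2 fold change was -0.53 (SE 0.293, 95% interval -1.28 to 0.21, edgeR adjusted p = 0.295). Keap1 (chromosome 9, 21229730 to 21239361, minus strand), the redox sensor that presents NRF2 to the ligase, had 53.3 and 61.6 CPM against 33.9 and 35.2 CPM in the controls. Its log2 fold change was 0.73 (SE 0.251, interval 0.09 to 1.37, edgeR adjusted p = 0.182), with no overlap between groups. Sqstm1 (chromosome 11, 50199366 to 50210827, minus strand), the p62 adaptor that draws KEAP1 into autophagy and is itself an NRF2 target, had 227 and 222 CPM against 111 and 97.4 CPM. Both KO-labelled libraries were high and close to each other, and the log2 fold change was 1.11 (SE 0.253, 95% interval 0.47 to 1.75, edgeR adjusted p = 0.166, DESeq2 adjusted p = 0.0326). The 3 genes kept these directions under all 5 scalings, with Keap1 between 0.26 and 0.79 and Sqstm1 between 0.63 and 1.16, but the Keap1 groups overlapped under at least 1 of them. In GENCODE, Keap1 overlaps Gm16754 and Sqstm1 overlaps Mrnip, whose reads cannot be told apart without strand.

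Ratios of counts within a library need no scaling between libraries. Keap1 had 0.210 and 0.241 counts per count of Nfe2l2 in the KO-labelled libraries and 0.108 and 0.0836 in the controls, 2.37 times more. For Sqstm1 the ratio to Nfe2l2 was 0.896 and 0.869 against 0.352 and 0.231, 3.09 times more. The groups did not overlap in either ratio. Nfe2l2 itself had a log2 fold change of -0.53, against a median of 0.41 for genes of at least 5 CPM. The ratio to Nfe2l2 thus rose for most of those genes too. The pairs were chosen after their values were seen, and an exact permutation test of 2 libraries against 2 cannot give a two-sided p below 0.333.

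**Figure D3:**
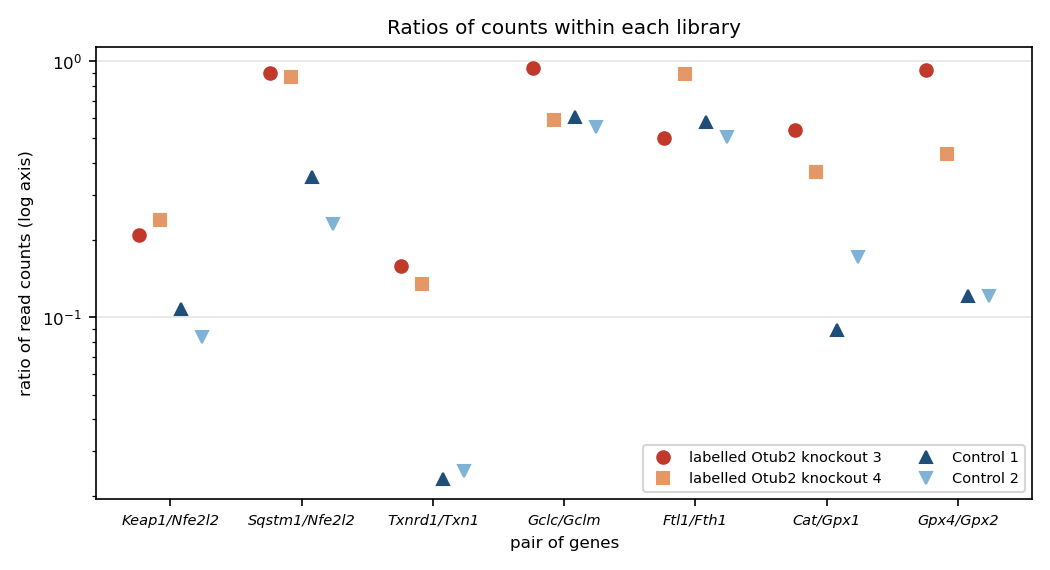
Ratio of the read counts of 2 genes within each library (y axis, log scale) for 7 pairs of members (x axis), 1 symbol per library. Txnrd1/Txn1 and Gpx4/Gpx2 show the widest gaps between the groups, 6.02-fold and 5.25-fold, while Gclc/Gclm and Ftl1/Fth1 overlap.

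Among the detoxification enzymes that serve as the usual readout of NRF2, none lay above the controls. Nqo1 (chromosome 8, 107388225 to 107403206, minus strand), which reduces quinones without a radical intermediate, had 239 and 142 CPM in the KO-labelled libraries and 374 and 309 CPM in the controls. The groups did not overlap, and the log2 fold change was -0.84 (SE 0.358, interval -1.75 to 0.07, edgeR adjusted p = 0.218). Without library 3 it was -1.24 and without library 4 -0.52. Hmox1 (chromosome 8, 75093621 to 75100589, plus strand), which breaks down haem, had 67.1 and 70.3 CPM against 219 and 69.5 CPM. Only Control 1 stood out, 3.15 times above Control 2, so the log2 fold change of -1.07 (SE 0.559, edgeR adjusted p = 0.278) rests on that library and was -0.0082 without it. Aldh3a1, an aldehyde dehydrogenase of surface epithelia, overlapped between groups at 276 and 146 CPM against 333 and 245 CPM.

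Of the genes for glutathione synthesis and cystine uptake, 3 of 5 lay below both controls and 0 above. Slc7a11 (chromosome 3, 49892526 to 50443614, minus strand), the cystine-glutamate exchanger, had 218 and 247 CPM against 435 and 389 CPM in the controls. No library of 1 group reached the other, with -0.83 as log2 fold change (SE 0.275, interval -1.52 to -0.13, edgeR adjusted p = 0.179). Gclc (chromosome 9, 77754535 to 77794485, plus strand) and Gclm (chromosome 3, 122245557 to 122270732, plus strand) encode the catalytic and modifier subunits of the rate-limiting ligase. Gclc lay just below the controls at 226 and 221 CPM against 271 and 240 CPM (log2 fold change -0.19, SE 0.259, edgeR adjusted p = 0.643). Gclm had 239 and 373 CPM against 447 and 434 CPM (-0.53, SE 0.333, edgeR adjusted p = 0.346), the lower value in library 3, without which it was -0.22. Gss, which completes glutathione, overlapped between groups at 53.6 and 77.5 CPM against 79.4 and 44.2 CPM. Gsr, which regenerates it, was high only in library 4, at 65.2 and 163 CPM against 68.8 and 57.1 CPM. Its log2 fold change of 0.86 (SE 0.476) was 0.05 without library 4 and 1.40 without library 3.

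The 5 members grouped under NADPH supply mostly stayed near the controls under TMM, with log2 fold changes between -0.93 and 0.06. Me1 (chromosome 9, 86581371 to 86695953, minus strand), the cytosolic malic enzyme, was the exception at 96.0 and 71.4 CPM against 172 and 147 CPM. Its log2 fold change was -0.93 (SE 0.283, interval -1.65 to -0.21, edgeR adjusted p = 0.170), with both KO-labelled libraries below both controls. The pentose phosphate dehydrogenases G6pdx and Pgd also lay below, by less (log2 fold changes -0.10 and -0.32, but -0.57 and -0.79 with median-centred libraries). The transketolase Tkt and transaldolase Taldo1, of the non-oxidative arm, overlapped (0.06 and 0.01) and turned negative under 3 of the 5 scalings.

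The thioredoxin system split between the carrier and its reductase. Txn1 (chromosome 4, 57943373 to 57956411, minus strand), the cytosolic thioredoxin, had 451 and 524 CPM in the KO-labelled libraries and 1084 and 986 CPM in the controls. Both lay below both controls, with log2 differences from the control mean of -1.20 in library 3 and -0.98 in library 4 (fitted log2 fold change -1.09, SE 0.310, interval -1.87 to -0.30, edgeR adjusted p = 0.167). Txnrd1 (chromosome 10, 82833951 to 82897712, plus strand), the selenoenzyme that reduces it with NADPH, had 71.5 and 70.8 CPM against 25.5 and 24.8 CPM. Replicates agreed within 1.03-fold in both groups, and the log2 fold change of 1.5 (SE 0.245, interval 0.88 to 2.12) was the highest of the 36. The edgeR adjusted p for Txnrd1 was 0.166 and that of DESeq2 0.00264, and under the 5 scalings its log2 fold change ran from 1.02 to 1.55. Counts of Txnrd1 per count of Txn1 were 0.159 and 0.135 against 0.0235 and 0.0252, 6.02 times more. In GENCODE, Txnrd1 overlaps Eid3 on the same strand and 2 predicted genes on the other, and the strand setting of the counting is not given in the sources used here. Srxn1 (chromosome 2, 152105516 to 152111376, plus strand), sulfiredoxin, which repairs over-oxidised peroxiredoxins, overlapped between groups at 105 and 114 CPM against 120 and 102 CPM (log2 fold change -0.01, SE 0.250, interval -0.65 to 0.62).

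The peroxiredoxins, which reduce peroxides with thioredoxin or glutathione, showed smaller differences. Prdx1 had 607 and 548 CPM against 744 and 924 CPM in the controls, without overlap (log2 fold change -0.53, SE 0.312, edgeR adjusted p = 0.320). Prdx2, Prdx5 and Prdx6 overlapped between groups, with log2 fold changes of -0.12, -0.41 and 0.24.

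Peroxide-removing enzymes lay on both sides. Cat (chromosome 2, 103453849 to 103485160, minus strand), the peroxisomal catalase, had 188 and 158 CPM in the KO-labelled libraries and 51.0 and 76.1 CPM in the controls. Each was more than the higher control, with 1.44 as log2 fold change (SE 0.312, interval 0.65 to 2.24, edgeR adjusted p = 0.166, DESeq2 adjusted p = 0.0176). Gpx4 (chromosome 10, 80047166 to 80056439, plus strand), which reduces lipid hydroperoxides in membranes, had 254 and 96.4 CPM against 78.4 and 51.9 CPM. Most of its log2 fold change of 1.43 (SE 0.531, interval 0.08 to 2.77, edgeR adjusted p = 0.194) came from library 3, and without that library it was 0.59. The Gpx4 groups overlapped under at least 1 of the 5 scalings, and reads of its copy Gpx4-ps2 (585 and 324 counts against 201 and 123) could be shared with it. Gpx2 (chromosome 12, 76792333 to 76795554, minus strand), an epithelial glutathione peroxidase and NRF2 target, had 275 and 221 CPM against 649 and 430 CPM. Both KO-labelled libraries were low, with -1.12 as log2 fold change (SE 0.344, interval -2.0 to -0.25, edgeR adjusted p = 0.171). Gpx1, the widespread cytosolic form, had 349 and 427 CPM against 569 and 440 CPM (-0.38, SE 0.311). Sod1, the copper-zinc superoxide dismutase, had 118 and 79.6 CPM against 74.1 and 70.0 CPM (0.45, SE 0.292), and its sign turned under 3 of the 5 scalings. The ratio of Gpx4 to Gpx2 counts was 0.924 and 0.436 against 0.121 and 0.121, and that of Cat to Gpx1 0.538 and 0.371 against 0.0897 and 0.173. Cat, Gpx4, Gpx2 and Sod1 were higher in library 3 than in library 4, and Gpx1 was lower. Summed erythroid markers were at 199 CPM in library 3, against 58.1 CPM in library 4 and 37.2 and 22.3 CPM in the controls. Of these 6 markers, 5 lay above both controls and 1 (Slc4a1) below. In library 3 Hbb-bs had 96.7 CPM and Hba-a1 66.9 CPM. The part of erythroid RNA in these genes was not tested.

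Among glutathione transferases, which conjugate glutathione to reactive compounds, 4 of 6 lay below both controls and 0 above. Mgst1 (chromosome 6, 138140316 to 138156755, plus strand), a membrane-bound form, had 64.8 and 23.4 CPM against 105 and 103 CPM. Its log2 fold change of -1.24 (SE 0.511, interval -2.54 to 0.06, edgeR adjusted p = 0.211) was the lowest of the 36, with library 4 2.77 times under library 3. Gsta4, which detoxifies the lipid aldehyde hydroxynonenal, had 1149 and 1325 CPM against 2065 and 2337 CPM (-0.83, SE 0.356, edgeR adjusted p = 0.220). Gstm1 and Gstp1 also lay below (-0.70 and -0.34), whereas Gsta1 and Gsto1 overlapped. Gsto1 had 1246 and 2331 CPM against 1858 and 1658 CPM, so that library 3 was the lowest and library 4 the highest of the 4. Members of these families share sequence with copies such as Gsta2, Gstp2 and Gstm2, and how reads that fit several genes were counted is not given in the sources used here.

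The ferritin subunits, which store iron out of reach of peroxide, overlapped between groups. Ftl1 had 299 and 401 CPM against 337 and 216 CPM, and Fth1 598 and 450 CPM against 580 and 426 CPM. Their log2 fold changes were 0.34 (SE 0.353) and 0.06 (SE 0.336).

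**Figure D4:**
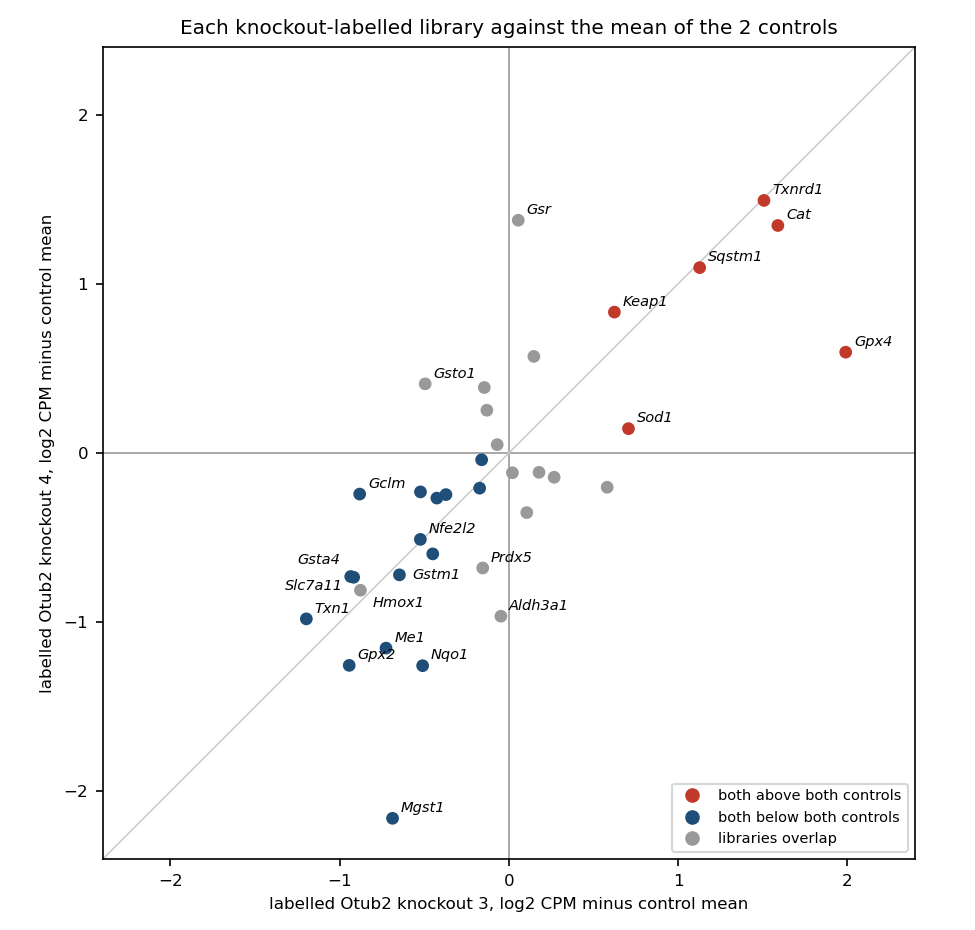
Difference in log2 CPM from the mean of the 2 controls for each of the 36 genes, KO-labelled library 3 (x axis) against 4 (y axis), with the diagonal marking equal differences. Txnrd1, Sqstm1 and Cat lie near the diagonal above 1, Gpx4 is drawn out along library 3 (1.99 against 0.60), and Gsr and Mgst1 along library 4 (1.38 and -2.16), on axes that share the same controls.

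The KO-labelled libraries differed from each other by a median of 0.29 on the log2 scale over the members, and the controls by 0.27. Over genes of at least 5 CPM the same medians were 0.54 and 0.23, so libraries 3 and 4 lay closer over the members than over genes at large, a difference that was not tested and that set abundance aside. In 9 of the 36 the libraries went opposite ways from the control mean, a count with no share of all genes set beside it. Set alone against the controls in edgeR, library 3 had 5 members higher and 9 lower at an adjusted p under 0.05, against 22.4% and 12.7% of genes tested, and library 4 had 5 and 11, against 18.8% and 22%. In such a fit the single library is assumed to vary like the controls, and both fits share them. The log2 fold change of Txnrd1 was 1.502 with library 3 alone and 1.519 with library 4 alone. In the same order, Cat had 1.556 and 1.342, and Sqstm1 1.121 and 1.12. Txn1 had -1.203 and -0.9549, and Gpx2 -0.9775 and -1.257. Hmox1 had -1.104 and -1.007 and was called lower in both fits, yet its groups overlapped. Its 67.1 and 70.3 CPM in the KO-labelled libraries lay near the 69.5 CPM of Control 2. A call in both such fits thus does not by itself show a difference between the groups. The genes named here were picked from the 36.

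Levels of different genes were compared per gene length, in the deposited FPKM (fragments relative to gene length and library total). Gsta4 had 565 and 1133 FPKM in the KO-labelled libraries and 1858 and 2121 FPKM in the controls. It was the highest member in library 3 and in both controls, while in library 4 Gsto1 was higher, at 1282 FPKM. By the mean of each group, whose libraries 3 and 4 differed widely in FPKM, Txn1 ranked 4 of 36 in the KO-labelled libraries and 2 in the controls, Gpx2 15 and 9, and Mgst1 32 and 22. In the other direction Cat ranked 20 and 31, Gpx4 14 and 27, and Sqstm1 19 and 28. Txnrd1 ranked last in both, at 6.28 and 10.8 FPKM against 4.10 and 4.03 FPKM. FPKM carries no TMM scaling, so the 30.1% of counts in gland markers lowers the FPKM of all other genes of library 3.

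A further 72 genes of the pathway, not members, were all tested, and 0 were called higher and 0 lower in edgeR, and before adjustment 13 were higher and 4 lower with p under 0.05, against 9.42% and 15.2% of all genes. In 26 of the 72 both KO-labelled libraries lay above both controls and in 13 below. Over all genes tested 26.9% lay above and 33.1% below, and among genes of at least 5 CPM 42.7% and 12%. Some of the 72, such as Gpx7, had a mean under 5 CPM, so the latter shares do not match the list. The median log2 fold change of the 72 was 0.38, and 0.18 without library 3. By library the median difference from the control mean was 0.42 in library 3 and 0.15 in library 4. DESeq2 called 8 higher and 1 lower, against 3.56% and 1.18% of all genes. Glrx, the cytosolic glutaredoxin, was the one lower call, at 200 and 153 CPM against 517 and 484 CPM (edgeR log2 fold change -1.5, SE 0.298, DESeq2 adjusted p = 0.00662). Pirin (Pir), an iron protein and NRF2 target, had 21.2 and 20.3 CPM against 36.7 and 38.2 CPM (-0.85, SE 0.272). Nfe2l1, the NRF2 relative that drives proteasome genes, had 351 and 277 CPM against 147 and 137 CPM (1.15, SE 0.278, DESeq2 adjusted p = 0.0318). The NRF2 partner Mafg and the antagonist Bach1 overlapped between groups, with log2 fold changes of 0.13 and 0.17.

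Of the 10 pathway genes with the smallest p, Nfe2l1 and the 7 that follow lay above both controls. Gstm2 had 32.5 and 15.0 CPM against 2.03 and 3.0 CPM (edgeR log2 fold change 3.23, SE 0.567, DESeq2 adjusted p = 1.79e-05). Gstk1, a mitochondrial and peroxisomal transferase, had 15.5 and 9.63 CPM against 1.54 and 2.49 CPM (2.64, SE 0.533), and Gstm4 14.9 and 14.5 CPM against 5.53 and 4.32 CPM (1.58, SE 0.401). Chac1, which degrades glutathione, had 7.19 and 10.8 CPM against 3.15 and 2.05 CPM (1.79, SE 0.508). Gpx8, a peroxidase of the endoplasmic reticulum, had 14.5 and 18.0 CPM against 5.32 and 6.01 CPM (1.52, SE 0.388), and the reductase Akr1b10 48.5 and 24.1 CPM against 15.3 and 14.1 CPM (1.31, SE 0.426). Txnip, which binds and inhibits thioredoxin, had 231 CPM in library 3 and 28.8 CPM in library 4 against 15.5 and 16 CPM in the controls (3.04, SE 0.971), and without library 3 its log2 fold change was 0.90. Fibroblast markers summed to 629 and 381 CPM against 151 and 179 CPM. Of the 8 fibroblast markers, 5, among them the collagen genes, lay above both controls and 0 below. The others differed between libraries. Dcn and Pdgfra exceeded both controls in library 3 but lay below both in library 4, and Thy1 lay below both in library 3. Endothelial markers summed to 250 and 68.7 CPM against 70.9 and 61.2 CPM. The part of fibroblast and endothelial RNA in the pathway genes was not tested.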

How the data were processed

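RNA sequencing libraries of tongue epithelial cells, 2 labelled Otub2 KO and 2 wild type, were compared. The authors deposited raw read counts per gene and FPKM values, per the file headers. HISAT2, DESeq and GRCh38 are listed in the submitters' processing notes. GRCh38 is of human origin, while every Ensembl ID in the table is murine. Counter, annotation and strand setting: not given in the sources used here. Columns were matched to titles by their number, and 0 columns of per-sample values went unused. Library sizes and tests omit 14785 features lacking an Ensembl ID, with 1.29% and 0.914% of counts in the KO-labelled libraries and 2.84% and 2.82% in the controls.

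The main test on counts was edgeR's quasi-likelihood F-test (edgeR 4.0.16, R 4.3.3, TMM, filterByExpr, Benjamini-Hochberg at 0.05 over 21916 genes). Standard errors were derived from the F statistic. DESeq2 1.42.0, limma 3.58.1 voom, other scalings and filters, and fits without each library were alternatives. The script was tested on simulated data. Coordinates are from GENCODE mouse release 21 (GRCm38), matched by ID. Deposited FPKM served to compare levels between genes and was not tested.

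The 36 members and all lists were chosen with earlier results of these data known. The rule for full values took 10 regulators and usual targets, plus members without overlap between groups that had a log2 fold change of at least 1 in size or an unadjusted p under 0.05. Values of further members, and Mafg and Bach1, stand outside that rule and were chosen after they were seen. Of the other pathway genes, the 10 with the smallest p were named.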

Additional observations from a re-analysis of the deposited data

How the results depend on the processing

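No paired analysis was possible because the groups share no replicate number (3 and 4 against 1 and 2). With edgeR, 0 members were called higher or lower under other size factors, other filters or without either control, and the same held with limma voom. Calls over all genes were 780 higher and 258 lower with DESeq2, 37 and 1433 with library size only, and 6 and 3 with no filter. DESeq2 called 3 members higher and, of the other pathway genes, 8 higher and 1 lower, and library size only called 1 of the latter higher. Without 1 library each, calls ran from 0 to 5243 higher and 0 to 5097 lower over all genes, 0 to 5 and 0 to 11 among members, and 0 to 29 and 0 to 10 among other pathway genes, all 0 without a control.

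The members' median log2 fold change was -0.11 with DESeq2 and its size factors, -0.63 with upper-quartile, library-size and median-centred scaling, -0.47 over genes of at least 5 CPM, -0.027 with no filter and 0.10 with unannotated features kept, and -0.25 to -0.050 without 1 library. Members above both controls numbered 11, and below 10, with unannotated features kept, and 6 to 14 and 16 to 22 without 1 library. Median centring and leaving out gland and heart markers were chosen after seeing the data. The cause of these shifts was not tested.

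Signs of small log2 fold changes turned as follows. With upper-quartile, library-size and median-centred scaling, in that order, Fth1 had -0.41, -0.43 and -0.42, Ftl1 -0.13, -0.047 and -0.14, Gss -0.39, -0.29 and -0.39, and Gsto1 -0.44, -0.31 and -0.45. Likewise Prdx6 had -0.24, -0.30 and -0.25, Sod1 -0.020, -0.061 and -0.030, Taldo1 -0.46, -0.47 and -0.47, and Tkt -0.41, -0.33 and -0.41. Over genes of at least 5 CPM, Fth1 had -0.25, Gss -0.24, Gsto1 -0.30, Prdx6 -0.071, Taldo1 -0.30 and Tkt -0.26. With no filter G6pdx had 0.032, Gsta1 0.079, Prdx2 0.0095 and Srxn1 0.12, and with unannotated features kept G6pdx had 0.16, Gclc 0.064, Gsta1 0.21, Prdx2 0.14 and Srxn1 0.24. DESeq2 size factors gave Gsta1 0.0002 and Srxn1 0.041, the DESeq2 test Gsta1 0.0001 and Srxn1 0.041, voom Gsto1 -0.038, and leaving out gland and heart markers Srxn1 0.0054. Without 1 library, the ranges were -0.13 to 0.31 for Fth1, -0.24 to 0.58 for Gss, -0.13 to 0.074 for Gsta1, -0.50 to 0.43 for Gsto1, -0.34 to 0.091 for Prdx2, -0.18 to 0.57 for Prdx6, -0.10 to 0.12 for Srxn1, -0.23 to 0.34 for Taldo1 and -0.15 to 0.28 for Tkt.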
